A study of Mus musculus with 25 samples.

Results

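Oxidative phosphorylation in mitochondria is carried out by 5 multi-subunit complexes, and the transcripts of their nuclear-encoded parts were followed across 25 samples of early mouse thymocytes. The members were the genes whose symbol in the array platform's annotation begins with Nduf (complex I), Sdha to Sdhd (complex II), Uqcr (complex III), Cox4 to Cox8 (complex IV) or Atp5 (complex V). The annotation held 91 such genes, and 86 of them had a probe with a detection p-value below 0.05 on at least 3 arrays, out of 15532 genes measured in all. Complex I contributed 41 genes, complex II 8, complex III 8, complex IV 13 and complex V 16. These prefixes also took in 10 assembly factors (Ndufaf and Sdhaf genes) and 1 annotated pseudogene, Ndufs5-ps.

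Complex I takes electrons from NADH and complex II takes them from succinate, and both pass them to ubiquinone. Complex III moves them on to cytochrome c, and complex IV hands them to oxygen. Complexes I, III and IV pump protons as they work, and complex V, the ATP synthase, uses the returning protons to make ATP. Most subunits are encoded in the nucleus and a few in mitochondrial DNA, and dedicated assembly factors put the complexes together. In the thymus, early T cell progenitors proliferate through the TN2 and TN3 stages, and respiration is one of their sources of ATP.

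Per the labels, the samples were sorted CD4-, CD8- and CD3-negative cells that carried CD25, the stage at which thymocytes commit to the T lineage. TN2 cells (CD44+, n = 2) and TN3 cells (CD44-, n = 2) of wild type B6/Ly5.1 mice served as stage controls. Young cells (n = 6) were CD45.2 TN2/3 cells that came from the C57BL/6 host. The group of old cells with competition (n = 6) held TN2/3 cells of B6/Ly5.1 donor origin, CD45.1, and their hosts were wild type (competitive). The group without competition (n = 9) consisted of F1(WB x B6/Ly5.1) donor cells from Rag2-/-γc-/-KitW/Wv hosts, described as non-competitive, which differ from the other hosts in all these alleles. The donor strain therefore differed between the old groups as well, and 1 of the 9 samples had no cell type label. Cells were read on Illumina bead arrays, and values are given as background-corrected, quantile-normalised log2 intensities. A gene is called higher or lower when limma's p-value, adjusted over all 15532 genes by Benjamini and Hochberg, was below 0.05.

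The share of probes detected was 46.7 to 50.1% on young arrays, 46.8 to 49.4% for old cells with competition and 41.1 to 45.7% without competition. On TN2 arrays it was 43.9 to 44.6%, and on TN3 arrays 43.1 to 44.2%. Young cells and old cells with competition lay on chips 2 and 4, 3 arrays of each group per chip. The arrays without competition were on chips 1 and 5, so they shared no chip with either, and TN2 and TN3 had 1 array each on chips 3 and 5. On array 6 of the old cells with competition, 2303 genes lay more than 1 log2 unit from the mean of the other 5 arrays, against 85 to 185 genes for each of those, and comparisons of that group are therefore given with and without it. The mean log2 value of 6 TN2 marker genes was 6.10 to 6.73 in young cells, 4.35 to 4.73 in old cells with competition apart from array 6 and 4.34 to 4.99 without competition. The TN2 arrays gave 6.69 to 6.87 for it, the TN3 arrays 4.72 to 4.85. The mean of 6 TN3 marker genes ran the other way, with 7.23 to 7.61 in young cells, 7.94 to 8.17 and 7.92 to 8.35 in the old groups, and with 5.96 or less on both TN2 arrays and 8.20 or more on both TN3 arrays. Markers of myeloid and dendritic cells (8 of 10 listed were measured) had a mean of 5.42 to 6.04 in young cells, with all 8 detected on some array, and of 4.35 to 4.55 and 4.28 to 4.77 in the old groups, where 1 of the 8 was detected on no array. Erythroid markers (6 of 8 measured) had a mean of 4.98 to 5.48 in young cells, 4.18 to 4.79 with competition and 4.29 to 5.31 without, with Hbb-b1 and Hbb-b2 called lower in both old groups. Markers of NK and gamma-delta T cells (5 of 8 measured) had 6.10 to 6.46, 5.23 to 5.94 and 5.20 to 6.30, and those of B cells (3 of 8 measured) 5.41 to 5.99, 4.97 to 5.50 and 4.80 to 5.50. Of the 8 myeloid and dendritic markers, 5 were called lower in each old group. With scaling to a common median, Cd68, Csf1r and Itgax differed from young cells by 0.19, 0.10 and 0.02 without competition. With competition they differed by 0.22, 0.03 and -0.09. The mean of the myeloid and dendritic markers was 5.76 to 6.17 on the TN2 arrays and 4.75 to 5.01 on the TN3 arrays. The means of the stage and myeloid markers thus separated both old groups from young cells. Those of the erythroid, NK and gamma-delta T and B cell markers ran lower, but overlapped young cells without competition, and those of B cells also with it. The median erythroid marker differed from young cells by only -0.13 with competition and 0.10 without. With scaling to a common median, 2 of the 6 TN3 markers were called higher and 2 lower without competition than in young cells. The part of all these markers in the results below was not tested. Il2ra, which encodes CD25, the marker of the sort, read low throughout, with 5.15 to 5.65 in young cells, 4.54 to 5.22 with competition apart from array 6, 4.16 to 5.07 without, and 4.13 to 4.62 on the TN2 and TN3 arrays.

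The great majority of the members were expressed throughout: 76 of 86 were detected on all 25 arrays, 38 of complex I, 7 of II, 6 of III, 9 of IV and all 16 of V. Of the other 10, Ndufaf7, Ndufb4, Sdhaf3, Uqcrfs1 and Cox7a2 were detected on 24 arrays, Ndufb11 on 21 and Cox6b2, the testis isoform of subunit VIb, on 19. Cox4i2, the lung isoform of subunit IV, just passed the detection rule with 4 arrays, none of them young or TN3, and Uqcrq, a small complex III subunit, passed with 7, none of them TN3. Cox6a2, the heart and muscle isoform of subunit VIa, was detected on 9 arrays and on no TN3 array. Just outside the rule were Ndufs1, which carries iron-sulfur clusters of complex I, and Cox8b, the muscle isoform of subunit VIII, each detected on 1 array, and Ndufaf6, Cox7b2 and Cox8c, on 0. For these genes and the rarely detected members, an absent transcript and a probe that fails to read it cannot be told apart here. Members that passed only through the group where they were high had to differ, so counts over members are descriptions.

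Averaged by complex, the 5 groups lay within a narrow band. For each array, the mean over a complex's members of the log2 value minus that member's mean of the 5 group means was taken. For complex V this mean deviation was -0.09, 0.01 and 0.14 (lowest, median, highest) in young cells and 0.06, 0.19 and 0.21 in old cells without competition. In old cells with competition it was -0.56 on array 6 and 0.07 to 0.21 on the other 5 arrays. The TN2 arrays stood at -0.21 and -0.05 and the TN3 arrays at -0.18 and 0.00. Both old groups thus lay high in complex V, with partial overlap with young cells, once array 6 was set aside; with scaling to a common median the median complex V difference from young cells was -0.33 without competition and 0.03 with it.

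**Figure D1:**
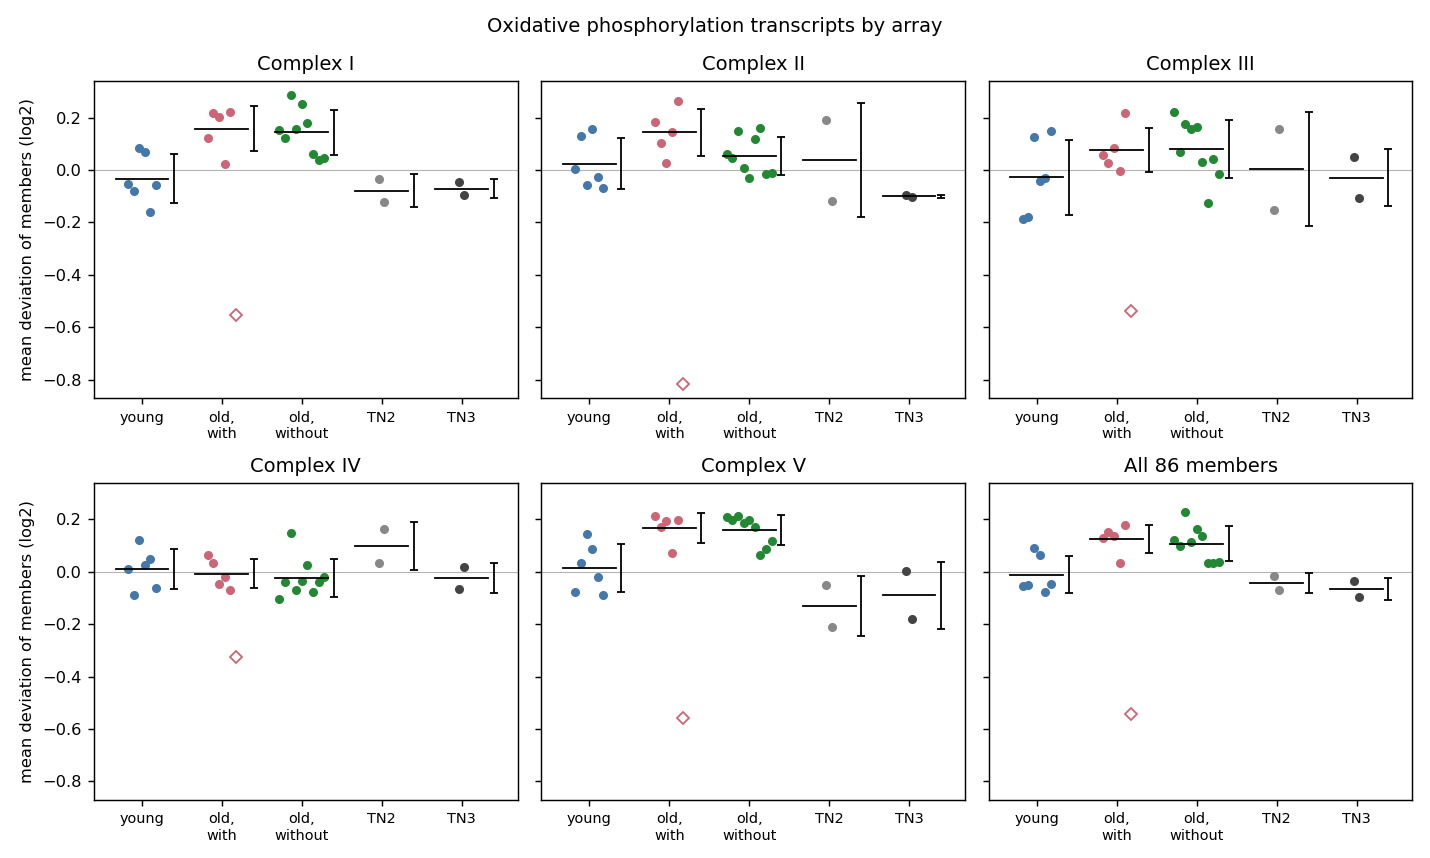
Mean deviation of the members of each complex, in log2 units, on each of the 25 arrays (points) by group; lines are group means and bars ± SD, both without array 6 of old cells with competition, which is the open diamond. That array lies at -0.32 for complex IV and between -0.82 and -0.54 for the others, below every other array, while the groups' other arrays lie within 0.3 of 0; with scaling to a common median the median member difference between old cells without competition and young cells is negative for every complex.

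Complex I followed the same order. Its mean deviation was -0.16, -0.05 and 0.09 in young cells and 0.04, 0.15 and 0.28 in old cells without competition. With competition it was -0.55 on array 6 and 0.02 to 0.22 on the rest. The TN2 arrays gave -0.12 and -0.03 and the TN3 arrays -0.10 and -0.05, so all 4 control arrays lay below all 9 arrays of old cells without competition. Complexes II, III and IV showed no such separation. Complex II ran from -0.07 to 0.16 in young cells, from 0.03 to 0.26 with competition apart from array 6 at -0.82, and from -0.03 to 0.16 without competition, with -0.12 and 0.19 in TN2 and -0.10 on both TN3 arrays. Complex III ran from -0.19 to 0.15, from -0.0049 to 0.22 apart from array 6 at -0.54, and from -0.13 to 0.22, with -0.15 and 0.16 in TN2 and -0.11 and 0.05 in TN3. In both, the 3 larger groups overlapped. Complex IV ran from -0.09 to 0.12 in young cells, from -0.07 to 0.06 with competition apart from array 6 at -0.32, and from -0.10 to 0.15 without competition. These means carry no test, and with scaling to a common median in place of quantile normalisation the whole set moved by more than the differences between groups, as given below. In sorted bulk samples, a change in the mix of cells and a change in RNA per cell cannot be told apart.

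Array 6 of old cells with competition carried much lower levels of respiratory chain transcripts than the other arrays of its group. Of the 86 members, 78 lay below the mean of the other 5 arrays, with a median difference of -0.64 log2 units, and 70 (81.4%) lay below all 5. Over all genes 30.2% lay below all 5, and over the 6550 genes detected on every array 41.6% did. The median difference was -1.09 for complex II, -0.67 for III, -0.67 for V, -0.64 for I and -0.37 for IV. The 10 assembly factors had a median of -1.09, and 9 of the 10 lay below all 5 other arrays. With scaling to a common median the members' median difference was -1.25, and 84 of 86 were lower. No test can be given for 1 array.

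The 3 members with the largest drop were assembly factors of complex I, Ndufaf4, Ndufaf2 and Ndufaf8. Ndufaf4, an early assembly factor of complex I, had a log2 value of 5.06 on array 6 against 7.11 to 7.35 on the other 5 arrays. Ndufaf2, an assembly factor that acts late in the build of complex I, had 5.56 against 7.43 to 7.73, and Ndufaf8, which works with Ndufaf5, had 4.97 against 6.54 to 6.89. Sdhb, the iron-sulfur subunit of succinate dehydrogenase, had 4.87 against 6.07 to 6.98. Each of these lies outside the range of its group. Ndufc2, an accessory membrane-arm subunit, came next after Sdhb, with 7.04 against 8.37 to 8.83. In complex III, Uqcrc1, a core protein, had 7.66 against 8.66 to 9.15, and in complex V, Atp5l, a membrane subunit of the synthase, had 8.93 against 10.2 to 10.4. Ndufs4, a complex I subunit at the site of NADH entry, went the other way, with 9.08 against 8.43 to 8.81.

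**Figure D2:**
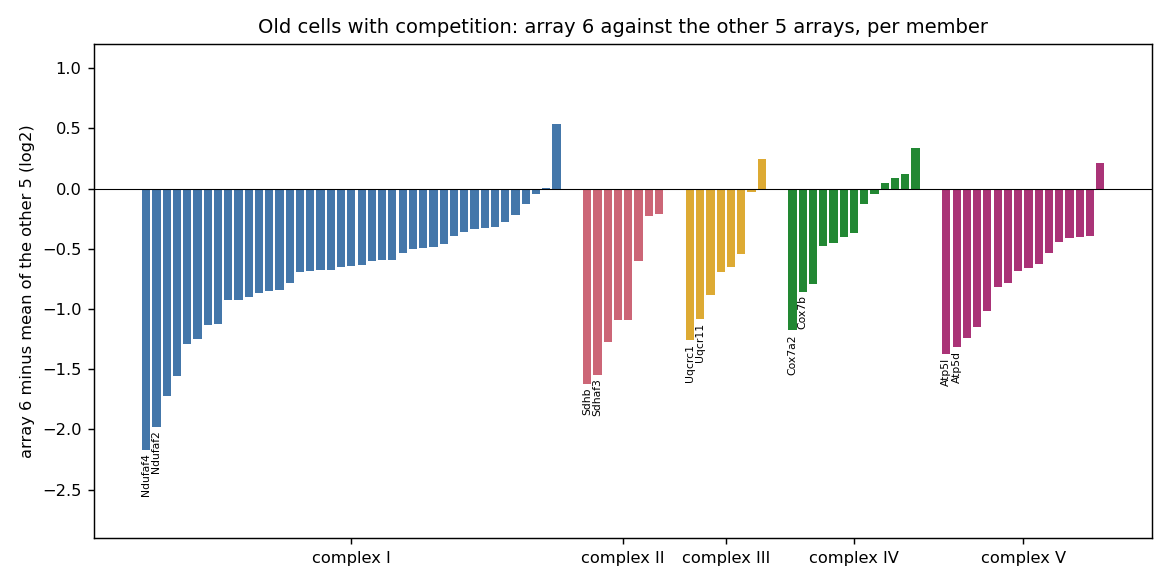
Difference in log2 intensity between array 6 and the mean of the other 5 arrays of old cells with competition for each of the 86 members (bars), ordered within each complex, with the 2 lowest members of each named. In all, 78 bars point down, from -2.17 for Ndufaf4, and complex IV holds the smallest shift with a median of -0.37.

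Some markers of CD4 CD8 double-positive thymocytes, a later stage, moved with array 6. The mean log2 value of the 5 measured of 8 listed markers was 8.73 on array 6, 7.14 to 7.52 on the other 5 arrays and 7.16 to 7.51 in young cells, and none of the 5 was undetected. Cd4 read 8.86 on array 6 against 4.55 to 5.31 on the other 5. Rag1, needed for receptor gene rearrangement, read 11.1 against 9.48 to 9.89, and Rag2 6.84 against 4.32 to 4.83. Cd8b1, a chain of CD8, went the other way, with 6.54 against 7.57 to 7.97, and Cd3e, at 10.25, lay within the 9.64 to 10.29 of the others. Of the 6 TN2 markers, 5 were not detected on array 6, while the mean of the 6 TN3 markers was 8.40 against 7.94 to 8.17. Of those 6, Rag1, Lef1, Cd3d and Cd28 lay above all 5 other arrays and Dtx1 and Ptcra below, with 5.01 against 6.95 to 7.13 for Dtx1. The part of these markers in the low values of the respiratory chain was not tested.

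Old cells without competition differed from young cells in 11 members, all higher: 6 of the 41 complex I genes, 1 of complex III, 1 of complex IV and 3 of complex V, and none of the 8 complex II genes. This makes 12.8% of the members, beside 8.93% of all genes called in either direction and 3.17% of all genes called higher. Among genes detected on all arrays the gap narrows, with 14.5% of 76 members and 13.4% of 6550 genes called. All 11 member calls were higher, while 401 of the 6550 genes were called higher and 479 lower. That lean was not particular to the members. Among 88 other genes of mitochondrial energy metabolism, described below, 7 were called higher and 1 lower. The changes were small. The median log2 difference was 0.13 over the 86 members, of which 61 were positive, and 0.02 over all genes. By complex it was 0.15 for I, 0.01 for II, 0.16 for III, 0.00 for IV and 0.15 for V. These directions rest on quantile normalisation: with scaling to a common median, the median of all genes moved to -0.17, that of genes detected on all arrays to -0.46 and that of the members to -0.36, with 23 members (26.7%) called lower and 0 higher, beside 25.4% of all genes called. Relative to genes detected on all arrays, the members' median stood 0.09 higher with quantile normalisation and 0.10 higher with the common median. Of the 86 members, 58 lay above that reference both times, but the 86 include members not detected on all arrays. Relative to all genes, the members' median differed by 0.10 with quantile normalisation and by -0.19 with the common median. With quantile normalisation, 11 of the 29 members with several kept probes had probes of opposite sign in this comparison. Of the 6 called members with several probes, 1 did.

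**Figure D3:**
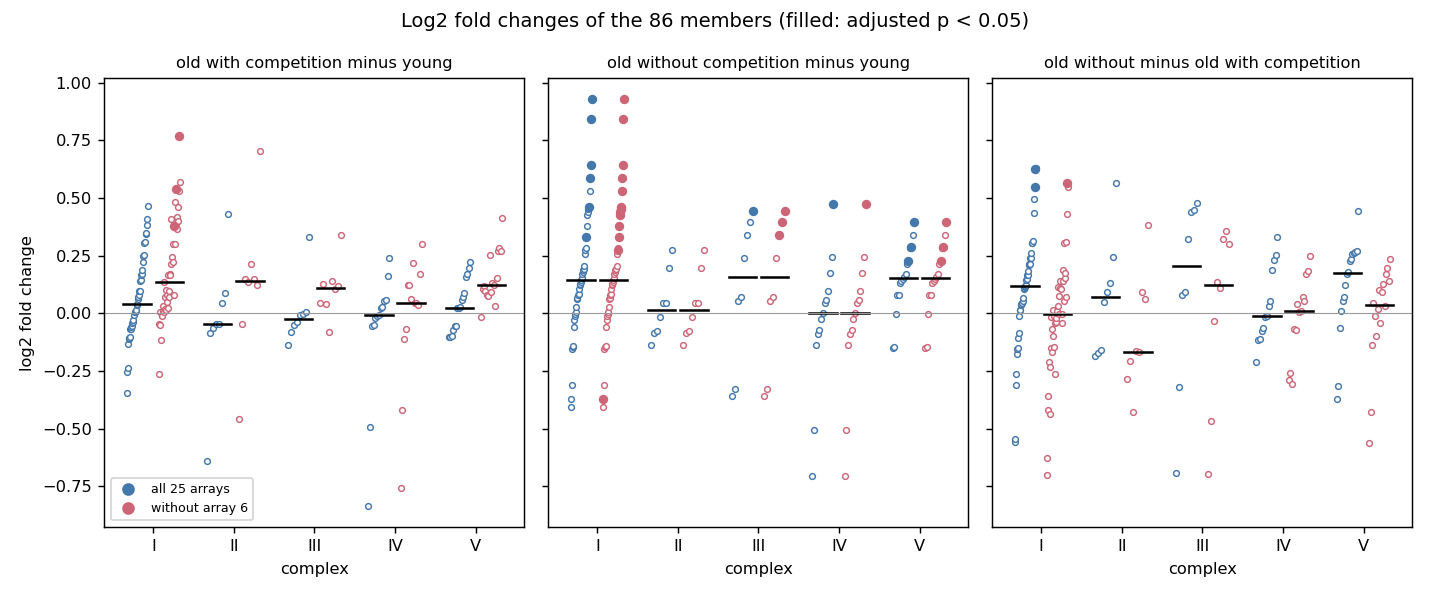
Log2 fold change of each of the 86 members by complex in 3 comparisons, with all 25 arrays (blue) and without array 6 of old cells with competition (red); filled points have an adjusted p below 0.05 and black lines are medians. With array 6 left out the medians of old cells with competition against young cells rise from 0.01 to 0.12 over all members; with scaling to a common median the medians over all members of old cells without competition are -0.36 against young cells and -0.35 against old cells with competition.

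The complex I probe with the clearest difference was that of Ndufs5-ps, annotated as a pseudogene of a small accessory subunit, whose signal cannot be told apart here from that of its parent gene. It had a log2 value of 7.89, 8.65 and 8.88 (lowest, median, highest) in young cells, 9.21, 9.48 and 9.92 in old cells without competition and 8.58, 8.88 and 9.17 with competition. All 9 arrays without competition lay above every array of young cells and of old cells with competition. The difference from young cells was 0.93 ± 0.14 (SE, limma, adjusted p = 7.504e-05), and 0.43 with scaling to a common median (limma, adjusted p = 0.06881). TN2 cells read 9.15 and 9.17 and TN3 cells 8.72 and 9.11, all below the old cells without competition, with 1 TN3 array inside the range of young cells.

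Ndufc1, a small membrane-arm subunit of complex I, had a log2 value of 7.68, 7.80 and 8.03 in young cells and 8.19, 8.44 and 8.95 in old cells without competition. In old cells with competition it was 7.35 on array 6 and 7.80 to 8.34 on the others. The 9 arrays without competition all lay above the young ones but overlapped those with competition. The difference from young cells was 0.64 ± 0.13 (adjusted p = 0.002265 by limma), or 1.56-fold, a second probe gave 0.33, and scaling to a common median gave 0.10. The control arrays were as high as the old cells, with 8.55 and 8.57 in TN2 and 8.54 and 9.05 in TN3.

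Complex IV and complex III each had 1 member higher. Cox6a1, the isoform of subunit VIa found in most tissues, had a log2 value of 9.05, 9.32 and 9.51 in young cells, 9.52, 9.81 and 9.99 in old cells without competition and 9.24, 9.54 and 9.73 with competition. Its groups of young and old cells without competition just failed to touch, with a difference of 0.47 ± 0.09 (limma, adjusted p = 0.001576), and its second probe gave 0.50. Uqcr10, a small subunit of complex III, had 9.69, 9.80 and 10.16 in young cells and 10.10, 10.28 and 10.60 without competition. Here 1 young array lay within the range of the old ones, and the difference was 0.44 ± 0.12 (limma, adjusted p = 0.01611), with 0.40 from a second probe. Under scaling to a common median these differences were -0.02 for Cox6a1 and -0.01 for Uqcr10.

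In complex V, 3 members were higher without competition, and none of them overlapped with young cells. Atp5j, coupling factor 6 of the peripheral stalk, had a log2 value of 9.11, 9.44 and 9.62 in young cells and 9.67, 9.79 and 10.02 in old cells without competition (difference 0.40 ± 0.10, limma adjusted p = 0.01613). Its probes disagreed: the others gave 0.30 and -0.57. Atp5j2, subunit f of the membrane sector, had 10.23, 10.41 and 10.43 against 10.50, 10.69 and 10.78 (0.29 ± 0.08, adjusted p = 0.02175 by limma). Atp5c1, the gamma subunit that turns within the synthase, had 9.81, 9.92 and 10.02 against 10.04, 10.14 and 10.29 (0.23 ± 0.07, adjusted p = 0.04575 by limma). For Atp5j, Atp5j2 and Atp5c1 the sign turned under scaling to a common median, to -0.10, -0.13 and -0.22. The alpha subunit, Atp5a1, did not pass, at -0.15 ± 0.22.

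**Figure D4:**
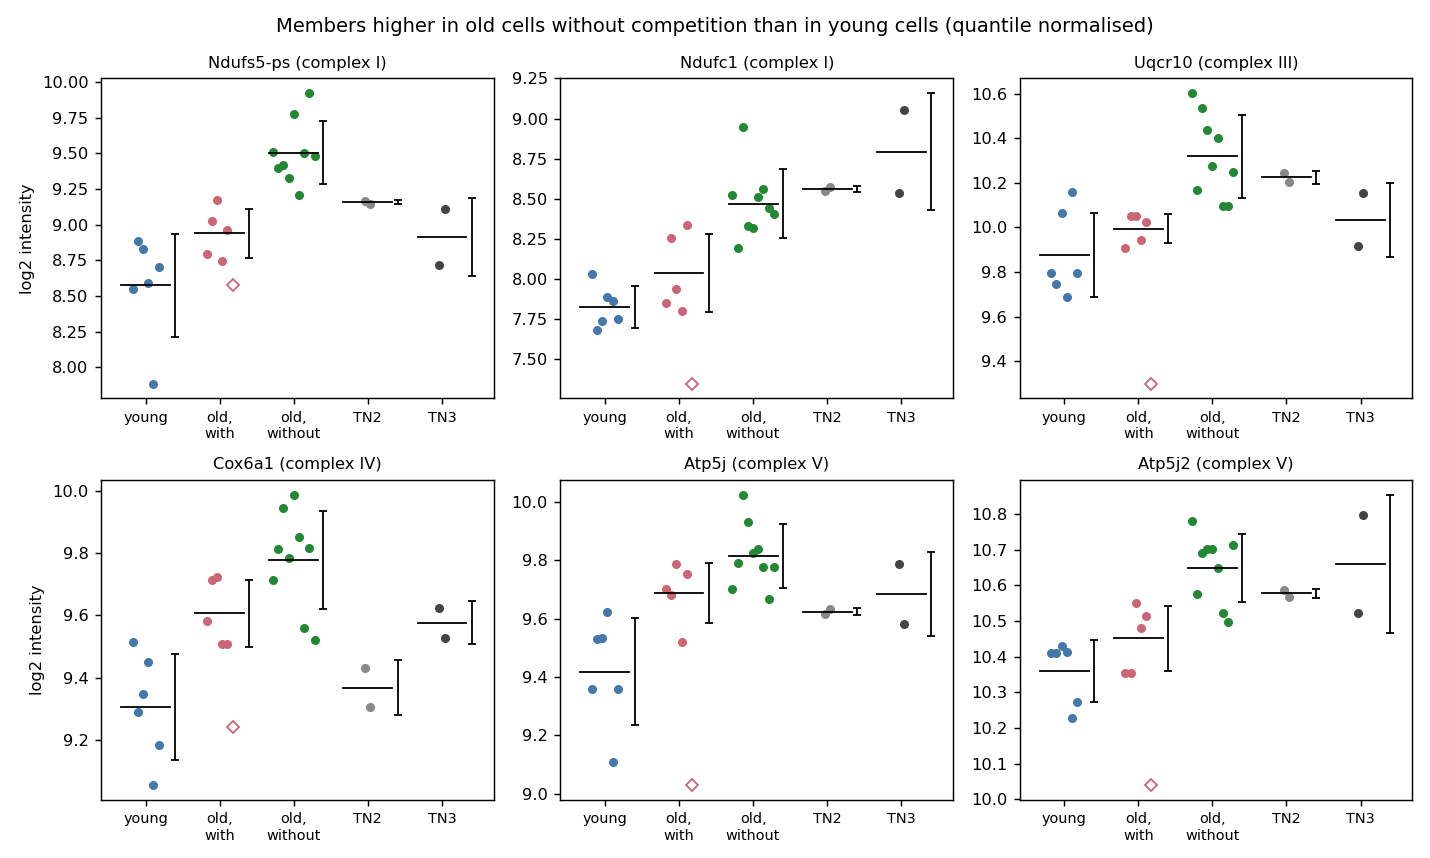
Log2 intensity of 6 members on each array by group; lines are means and bars ± SD, both without array 6 of old cells with competition (open diamond). Old cells without competition lie above every young array for 5 of the 6 and overlap young cells for Uqcr10; under scaling to a common median the difference from young cells turns below 0 for Uqcr10, Cox6a1, Atp5j and Atp5j2.

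The other 4 members called higher belong to complex I and overlapped with young cells. Ndufaf4 had a log2 value of 6.16, 6.45 and 6.87 in young cells and 6.78, 7.47 and 7.62 without competition, a difference of 0.84 ± 0.25 (limma, adjusted p = 0.03823). Ndufa11, a membrane-arm subunit, had 7.34, 7.95 and 8.35 against 7.78, 8.61 and 8.89 (0.59 ± 0.17, limma adjusted p = 0.03364). Ndufa5 and Ndufb6, accessory subunits named besides the rule for named genes, differed by 0.46 ± 0.14 (adjusted p = 0.04456) and 0.33 ± 0.10 (adjusted p = 0.04886) in the same limma fit. With scaling to a common median the differences were 0.29 for Ndufaf4, 0.04 for Ndufa11, -0.08 for Ndufa5 and -0.15 for Ndufb6. With that scaling Ndufa12 stood at -0.11. With quantile normalisation Ndufa12, an accessory subunit near the site of electron entry, missed the threshold with all arrays (0.38 ± 0.16, limma adjusted p = 0.1498, and 0.005448 without array 6 of old cells with competition), although its 9.07 to 9.68 in young cells did not reach the 9.73 to 10.08 of old cells without competition. In all, 7 members did not overlap between these groups and were higher in the old cells (Ndufa12, Ndufc1, Ndufs5-ps, Cox6a1, Atp5c1, Atp5j and Atp5j2), and 0 were lower, beside 1.06% of all genes higher and 2.14% lower.

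Chip and group cannot be told apart for this comparison, since no chip held both. For each of the 11 called members, the mean on chip 1 and on chip 5 of the old cells exceeded the mean on chip 2 and on chip 4 of the young cells. The same arrays chose these members, so this was largely fixed beforehand and does not separate chip from group. The calls of Ndufs5-ps, Ndufc1, Cox6a1 and Uqcr10, held whichever single array was left out, with highest adjusted p-values of 0.0002732, 0.007807, 0.006663 and 0.04439 by limma. The others are near the threshold. The count fell to 5 without young array 5 or 6, to 6 without young array 2 or without array 2, 3, 4 or 6 of old cells without competition, and to 7 without array 5 of that group. Leaving out array 6 of the old cells with competition, which narrows the shared estimate of the spread, raised it to 19 higher and 1 lower (with 12.5% of all genes then called). The lower one was Ndufb10, an accessory subunit of complex I, at -0.37 ± 0.11 (limma, adjusted p = 0.02735 without that array).

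The differences between the stage controls, from 2 arrays per stage, are set beside these. The 11 members called higher against young cells had TN3 minus TN2 differences of -0.24 to 0.65 log2 units with a median of 0.10, 9 of them positive. Their median for old cells without competition minus young cells was 0.46, in the comparison that chose them. Over all 86 members the medians were 0.01 for TN3 minus TN2 and 0.13 for old cells without competition minus young cells. None of the 11 passed the test between TN3 and TN2. Ndufa11 and Ndufaf4 had the widest stage differences, 0.65 and 0.56, and Ndufs5-ps and Uqcr10 the opposite sign, -0.24 and -0.19. In old cells with competition minus young cells, all 11 were positive, with a median of 0.19. That comparison shares its young arrays with the one that chose the 11.

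The promoters of the called members were read for motifs of the nuclear respiratory factors, which are known to bind upstream of many genes of the respiratory chain. RefSeq windows (GRCm38.p6, 250 bases before the annotated start) were available for 73 of the 86 members and 10 of the 11 called ones, and some genes had several windows, 5 of the 73 and 3 of the 10. Counting a gene when any of its windows matched, the motif of NRF1 stood in 13 of the 73 genes (17.8%), against 8.03% of 11115 measured genes. The ETS motif CCGGAAG, which GABPA (NRF2) binds, stood in 16 (21.9%), against 13.6%. Either motif, on either strand, was found in 26 of 73 (35.6%) and in 20.1% of the measured genes. Among the 10 called members with a window, 7 held one in any window (NRF1 in 5, ETS in 3). With only the first window of each gene these counts were 5, 4 and 2, and either motif was found in 24 of 73 members (32.9%) and in 18.3% of the measured genes. A match describes the letters and shows no binding. Of the 10 first windows, those of Ndufc1, Uqcr10, Atp5j, Atp5j2 and Atp5c1 held neither motif. The windows printed below were not drawn at random, and motifs are more frequent among them than among the 10. Shown are Cox6a1, whose window held 2 NRF1 motifs and 1 ETS motif, at chr5:115348959-115349208 of the minus strand; Ndufa11, chr17:56717512-56717761, plus strand, and Ndufaf4, chr4:24897833-24898082, plus strand, with 1 NRF1 motif each; and Ndufc1, chr3:51408956-51409205, minus strand, with neither. All are written 5′ to 3′ on the gene's strand, with the motifs in capitals.
Cox6a1: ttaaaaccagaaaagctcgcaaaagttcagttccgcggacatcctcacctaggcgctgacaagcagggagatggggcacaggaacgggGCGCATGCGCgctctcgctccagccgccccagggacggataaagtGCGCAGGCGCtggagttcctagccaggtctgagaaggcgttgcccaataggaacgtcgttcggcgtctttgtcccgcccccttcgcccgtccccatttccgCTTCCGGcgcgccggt
Ndufa11: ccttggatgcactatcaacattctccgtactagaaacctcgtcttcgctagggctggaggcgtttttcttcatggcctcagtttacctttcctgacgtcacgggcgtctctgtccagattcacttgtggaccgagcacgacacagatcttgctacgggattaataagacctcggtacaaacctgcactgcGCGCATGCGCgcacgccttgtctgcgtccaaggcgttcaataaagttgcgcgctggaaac
Ndufaf4: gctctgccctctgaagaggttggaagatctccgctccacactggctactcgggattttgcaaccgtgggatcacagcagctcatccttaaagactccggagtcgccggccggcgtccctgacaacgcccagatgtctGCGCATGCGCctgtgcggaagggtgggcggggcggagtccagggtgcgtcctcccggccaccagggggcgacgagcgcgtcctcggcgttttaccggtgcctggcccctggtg
Ndufc1: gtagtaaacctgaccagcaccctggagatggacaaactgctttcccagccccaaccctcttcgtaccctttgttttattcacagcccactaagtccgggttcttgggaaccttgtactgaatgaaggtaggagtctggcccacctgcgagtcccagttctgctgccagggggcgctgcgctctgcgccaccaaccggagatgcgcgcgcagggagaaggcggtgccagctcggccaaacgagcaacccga

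When young cells were compared with old cells with competition, 0 of the 86 members were called by limma with all arrays, beside 2.92% of all genes. At an unadjusted p under 0.05 there were 6 members, beside 11.6% of all genes. The median log2 difference was 0.01, with 47 of 86 positive. Without array 6 it was 0.12, with 72 positive, and by complex it was 0.13 for I, 0.14 for II, 0.11 for III, 0.05 for IV and 0.12 for V. Within chip 2, which holds array 6, the median was -0.04 and, without it, 0.17. Within chip 4 it was 0.07. Array 6 thus set the median of this comparison.

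Without array 6, 3 complex I genes were called higher, beside 4.21% of all genes called and 1.47% called higher. Ndufaf4 had a log2 value of 6.16 to 6.87 in young cells and 7.11 to 7.35 on the 5 arrays left with competition, a difference of 0.77 ± 0.15 (limma, adjusted p = 0.003072). These 5 arrays lay above all young ones. Ndufa12 had 9.07 to 9.68 and 9.80 to 10.04 (0.38 ± 0.10, limma adjusted p = 0.03047), also without overlap. Ndufaf8 had 5.58 to 6.71 and 6.54 to 6.89 (0.54 ± 0.15, limma adjusted p = 0.03667), and these ranges overlapped. With array 6 included these differences were 0.41 ± 0.28, 0.16 ± 0.17 and 0.25 ± 0.23, and none passed. Of the members, 4 were higher without overlap once array 6 was left out (Ndufa12, Ndufaf4, Ndufc2 and Ndufs3), beside 1.97% of all genes.

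The smallest adjusted p with all arrays was that of Cox6b2 at -0.84 ± 0.24 (limma, adjusted p = 0.0661). Its log2 values were 4.79 to 5.91 in young cells and 4.17 to 4.93 with competition, low values for these arrays. Without array 6 the difference was -0.76, and over the alternatives its limma adjusted p ran from 0.01438 to 0.5106. It was called lower with the chip as a fixed block, with scaling to a common median, with detection on at least 13 arrays, with array weights and without young array 4. Old cells without competition lay between, at 4.30 to 5.52, and its common counterpart Cox6b1 stood at 10.63 to 10.80, 10.47 to 10.76 and 10.62 to 10.78 in the 3 groups.

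Direct comparison of the old groups gave 2 members higher without competition, both of complex I, beside 1.24% of all genes called and 0.412% called higher. Ndufs5-ps was higher by 0.62 ± 0.14 (limma, adjusted p = 0.01944) and Ndufc1 by 0.55 ± 0.13 (limma, adjusted p = 0.03581). Without array 6 they stood at 0.57 (adjusted p = 0.03328) and 0.43 (adjusted p = 0.06014, limma), with 2.11% of all genes called, and the median over members went from 0.11 to 0.01. Ndufs5-ps and Uqcr10 did not overlap between the old groups, beside 0.708% of all genes. Uqcr10 differed by 0.44 ± 0.12 (limma, adjusted p = 0.0616), by 0.32 without array 6 and by -0.0042 with scaling to a common median. Without array 6, Ndufaf8 (-0.44) and Ndufb4 (-0.70) also did not overlap and were lower without competition, beside 1.64% of all genes in either direction. The count of calls was 0 without array 1 or array 4 of old cells with competition, and 1 without array 6 of that group or without array 3, 6, 7 or 8 of old cells without competition. Under scaling to a common median 24 members (27.9%) were called lower without competition and 0 higher, beside 22.1% of all genes called, with Ndufc1 at -0.0039 and Ndufs5-ps at 0.12. The groups shared no chip, and donor strain and host differed with competition.

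Between TN2 and TN3 cells none of the 86 members was called by limma, where 1.17% of all genes were called. With 2 arrays per stage, this does not show that the stages were alike. The stages shared their chips, a pairing that the fit hardly used (chip correlation 0.00459). At an unadjusted p under 0.05 there were 2 members, beside 10.9% of all genes. The median difference, TN3 minus TN2, was 0.01 over the members and 0.07 for complex V, and 15 members lay higher and 11 lower without overlap, beside 37.3% of all genes. Cox6a2 read 6.56 on 1 TN2 array and 4.40 on the other, and 4.37 and 4.40 in TN3 (-1.10 ± 0.53, limma adjusted p = 0.4504), so it rests on 1 array. Uqcrfs1, the Rieske iron-sulfur protein of complex III, read 4.88 and 4.93 in TN2 and 4.28 and 4.72 in TN3 (-0.41 ± 0.29, limma adjusted p = 0.6757).

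Set against TN3 cells, 5 members were called in young cells, 5 with competition and 2 without competition, of which 4, 4 and 2 were higher, beside 3.67%, 3.78% and 2.36% of all genes. With scaling to a common median the members called were 40, 45 and 0, the first 2 counts all higher, beside 20.2%, 19.2% and 0.425% of all genes. These comparisons share the same 2 TN3 arrays. Atp5a1, the alpha subunit in the F1 head of the ATP synthase, was called in all 3, higher by 1.62 ± 0.34, 1.85 ± 0.34 and 1.48 ± 0.32 (limma, adjusted p = 0.007143, 0.003919 and 0.01554). Its log2 values were 7.14, 7.60 and 7.76 in young cells, 6.79, 7.84 and 8.25 with competition and 7.11, 7.43 and 7.72 without, but 6.64 on the TN3 array of chip 5 and 5.16 on that of chip 3. The TN2 arrays split in the same way, with 6.88 on chip 5 and 5.81 on chip 3, so both controls on chip 3 were the lowest of all arrays. Ndufb4 and Ndufb5, membrane-arm subunits of complex I, had the same split, with 6.79 and 4.51 for Ndufb4 and 7.00 and 5.13 for Ndufb5 on the TN3 arrays of chips 5 and 3.

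Without the TN3 array on chip 3 the count of called members against TN3 was 0 for young cells, 0 for old cells with competition and 1 for old cells without competition, and Atp5a1 stood at 0.89, 1.11 and 0.74. On chip 5 alone, and with the chip as a fixed block, 0 members were called in old cells without competition. Ndufb2, another membrane-arm subunit, read 4.74 and 5.32 in TN3 on chips 5 and 3, below all 9 arrays of old cells without competition at 5.87 to 6.62, a difference of 1.18 ± 0.24 (limma, adjusted p = 0.0119), and 1.46 on chip 5 alone (limma, adjusted p = 0.2111). Without the TN3 array on chip 5 it was 0.89 (limma, adjusted p = 0.1789). Cox6c, a small subunit of complex IV, was 0.34 ± 0.10 higher in old cells with competition (limma, adjusted p = 0.0453), with 10.01 to 10.15 against 9.68 and 9.81. Without array 6 Cox6c differed by 0.33, and with scaling to a common median by 1.17. Ndufc1 was the member called lower, by -0.97 ± 0.20 in young cells (limma, adjusted p = 0.007143) and -0.87 ± 0.20 with competition (adjusted p = 0.01614, limma), values that became -0.08 and 0.02 with scaling to a common median. Without array 6 the value with competition was -0.76 ± 0.18 for Ndufc1, 2.04 for Atp5a1, 2.05 for Ndufb4 and 1.65 for Ndufb5, all called. Without array 6 of old cells with competition these counts rose to 8, 15 and 6 members, beside 6.04%, 7.6% and 4.89% of all genes, and without array 1 of that group its own count was 3.

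**Figure D5:**
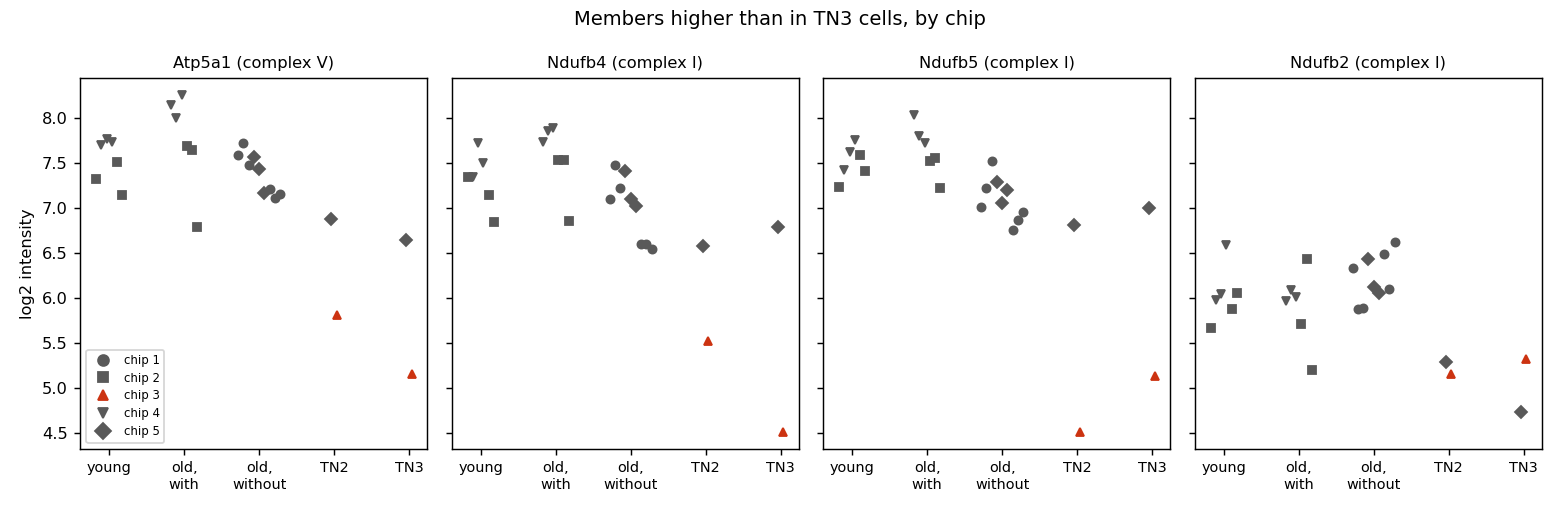
Log2 intensity of 4 members on each array, by group, with the marker's shape giving the chip and chip 3 in red. For Atp5a1, Ndufb4 and Ndufb5 the TN2 and TN3 arrays of chip 3 lie lowest, down to 4.51, while for Ndufb2 all 4 control arrays lie at 5.32 or below.

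With quantile normalisation and all arrays, no isoform of complex IV other than Cox6a1 was called between the old and young groups. With scaling to a common median Cox6a1 lost its call in old cells without competition, where Cox4i1 (-0.40), Cox6b1 (-0.38), Cox6b2 (-0.79) and Cox7a2l (-0.50) were called lower than in young cells, and Cox6b2 (-0.94) was called lower with competition. The values that follow are quantile normalised. Cox4i1, the common isoform of subunit IV, had a log2 value of 9.40 to 9.77 in young cells, 9.45 to 9.95 with competition and 9.45 to 9.91 without, and Cox4i2 read 4.07 to 4.47 in those groups. Cox6a2 had 4.07 to 6.26 in young cells and 4.07 to 4.39 in old cells without competition (-0.70 ± 0.28, limma adjusted p = 0.1304). Cox7a1, the muscle isoform of subunit VIIa, and Cox7a2, its common form, differed from young cells by 0.25 ± 0.30 and -0.09 ± 0.25 without competition. Cox7a2l, which links complexes III and IV, differed by -0.07 ± 0.12. Ndufa4, named for complex I but now known as a complex IV subunit, differed by 0.19 ± 0.07 (limma, adjusted p = 0.1145). The c-ring genes of complex V, Atp5g2 and Atp5g3, differed by 0.34 ± 0.18 and 0.17 ± 0.14. Cox7a1, Ndufa4, Atp5g2 and Atp5g3 turned below 0 with scaling to a common median, at -0.10, -0.28, -0.18 and -0.35. Levels of different probes are not compared.

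The 10 assembly factors had a median difference from young cells of 0.15 without competition and 0.09 with competition, or 0.33 with competition once array 6 was left out, and under the first comparison 1 of 10, Ndufaf4, was called. Ndufaf5, which modifies a complex I subunit, came next at 0.53 ± 0.17 (limma, adjusted p = 0.05054, and 0.01662 without array 6), and at -0.03 with scaling to a common median. Ndufaf1, Ndufaf2 and Ndufaf7, which help build complex I, had 0.20 ± 0.19, 0.15 ± 0.24 and 0.15 ± 0.21. Of the complex II factors, Sdhaf1, Sdhaf2, Sdhaf3 and Sdhaf4 had 0.20, -0.08, 0.05 and -0.08, and Sdhd, the membrane anchor with the smallest adjusted p in complex II, had -0.14 ± 0.10 (limma, adjusted p = 0.4789). Sdhd (-0.67) and Sdhaf2 (-0.53) were called lower with scaling to a common median, and there Ndufaf1 (-0.31), Ndufaf2 (-0.41), Ndufaf7 (-0.28), Sdhaf1 (-0.35) and Sdhaf3 (-0.37) turned below 0 without a call. Sdhaf4 differed by -0.64 ± 0.24 in old cells with competition, which did not pass (limma, adjusted p = 0.2123), and by -0.46 without array 6.

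Other genes of mitochondrial energy metabolism, from lists chosen with earlier results of these data known, gave 8 calls among 88 measured genes (9.09%) in old cells without competition against young cells, close to the 8.93% of all genes. Among 33 measured assembly factors outside the prefixes, 3 were higher: Cox17, the copper chaperone of complex IV, by 0.50 ± 0.11, Cox19, another copper-handling factor, by 0.76 ± 0.17, and Timmdc1, which assembles complex I, by 0.72 ± 0.18 (limma, adjusted p = 0.00464, 0.005253 and 0.01462). Among 14 electron carriers and partners, Cyc1, the cytochrome c1 subunit of complex III, was higher by 0.54 ± 0.16 (limma, adjusted p = 0.03381). Of 13 tricarboxylic acid cycle genes, Mdh2 (0.31 ± 0.09) and Suclg2 (0.64 ± 0.20) were higher and Idh2, the mitochondrial NADP-dependent isocitrate dehydrogenase, was lower (-0.65 ± 0.14, limma adjusted p = 0.003415). Of 19 regulators of mitochondrial biogenesis, Nrf1, the factor whose motif is described above, was higher by 0.40 ± 0.10 (limma, adjusted p = 0.01096), and of 9 genes of peroxide defence 0 were called. With scaling to a common median Cyc1, Nrf1 and Mdh2 turned below 0, at -0.01, -0.14 and -0.24, Cox17, Cox19, Timmdc1 and Suclg2 stood at 0.03, 0.30, 0.16 and 0.16 without a call, and Idh2 at -1.20 (limma, adjusted p = 0.0001152). In all, that scaling gave 0 calls higher and 6 lower among the assembly factors, 4 among the carriers and partners, 4 among the tricarboxylic acid cycle genes, 6 among the regulators and 4 among the peroxide defence genes. In old cells with competition against young cells 0 genes of any of these lists were called with all arrays.

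Of the 13 subunits encoded in mitochondrial DNA, 1 was measured, mt-Atp6, the channel-forming subunit a of the ATP synthase. Its log2 value was 9.65, 10.01 and 10.19 in young cells, 9.16, 9.47 and 9.95 in old cells without competition and 9.68 to 10.30 with competition apart from array 6, which read 9.48. The difference between old cells without competition and young cells was -0.43 ± 0.14 (limma, adjusted p = 0.05892, 0.03931 without array 6, and 0.00216 at -0.91 with scaling to a common median), against 0.15 for the median of the 16 nuclear-encoded members of complex V. TN2 cells read 9.14 and 9.63 and TN3 cells 8.55 and 9.29. Against TN3, mt-Atp6 was higher by 1.03 ± 0.22 in young cells (limma, adjusted p = 0.007213). It was also called higher in old cells with competition, by 0.93, or 1.01 without array 6. In old cells without competition it differed from TN3 by 0.61, without a call.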

How the data were processed

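Per the labels' protocols, RNAzol B was used to extract RNA, which was amplified by Ambion MessageAmp into biotin-labelled cRNA for Illumina arrays. The deposited intensity values were linear, with neither background subtraction nor scaling, and each came with a deposited detection p-value by a test that the labels do not name. The authors also deposited log2 values, already quantile normalised, used here as an alternative input.

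Background was corrected from the detection p-values, and values were quantile normalised and logged by limma 3.58.1 (neqc, offset 16; R 4.3.3), which understates fold changes of dim genes. Probes with detection p below 0.05 on at least 3 of 25 arrays were kept (30174 of 46237). Symbols came from the platform annotation and were updated through RefSeq identifiers, and 1 probe stood for a gene, the one with the highest mean. All arrays entered 1 limma fit with a mean per group and chip as a random block (statmod 1.5.0; correlation 0.00459), with eBayes and two-sided tests. Errors are standard errors of the fit. The number of arrays limits the precision. Separate mice per array are not stated in the labels; a p-value here reflects only how these samples vary, which may be technical.

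The members and gene lists were chosen with earlier results of these data known. Named were, per comparison and complex, up to 4 called members with the smallest adjusted p (or the first where none passed), members without overlap between groups, assembly factors, the pseudogene, isoforms, and up to 4 genes of each pathway list; Ndufa5, Ndufb6, Ndufb10 and, without array 6, Ndufa12, and the members described for array 6 and mt-Atp6 beside it, were named after their values were seen. The fit was also run on simulated data. These were independent normal values without chip effects or an outlying array, so that run says nothing about either. Alternatives covered background, scaling, detection, probe choice, chip, array weights, the samples fitted and single arrays.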

Additional observations from a re-analysis of the deposited data

Results flagged for a closer look

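A single array far from the rest of its group accounted for most of the values listed here: of 69 groups of values examined by Dixon's test at the 95% level, 18 held such an array, and 13 of these were array 6 of old cells with competition. Chance alone would flag about 5% of groups if they were independent. They were not: all were read on the same arrays, and some genes were named for a call that appears without array 6. The 5% is therefore no measure for this count. On that array the mean deviation was -0.55 log2 units for complex I, -0.82 for II, -0.54 for III, -0.32 for IV and -0.56 for V. Single genes far below their group there were Atp5c1 at a log2 value of 9.64, Atp5j at 9.03, Ndufa12 at 8.61, Ndufaf4 at 5.06, Ndufb10 at 8.1, Ndufb4 at 6.85, Ndufb6 at 9.28 and Uqcr10 at 9.3.

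Young array 5 lay apart from its group in Ndufa12 (9.07), Ndufa5 (7.24) and Ndufs5-ps (7.89), and young array 1 in Cox6c (9.87), all lowest of 6. Array 3 of old cells without competition lay highest of 9 in Ndufc1 at 8.95.

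The change from young cells differed between the old groups for Ndufs5-ps, by 0.62 log2 units (limma, adjusted p = 0.01944), and for Ndufc1, by 0.55 (adjusted p = 0.03581 by limma). All 9 arrays without competition lay above the 6 with competition for Ndufs5-ps, and not for Ndufc1.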

How the results depend on the processing

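Other than by chip, no paired analysis was possible because the labels carry no replicate numbers. The chip served as a fixed block where groups shared chips. Scaling to a common median moved most: the members' median log2 difference became -0.36 for old without competition minus young, -0.35 for old without minus old with, 0.79, 0.44 and 0.71 for old with, old without and young minus TN3, and -0.22 for TN3 minus TN2, and members called became 23, 24, 45, 0 and 40 in the first 5 of these and 1 for old with minus young. Of 34 named genes in old without minus young and 26 in old without minus old with, 21 and 15 changed sign there; among those called in either setting the values were Atp5c1 (-0.22), Atp5j (-0.10), Atp5j2 (-0.13), Cox4i1 (-0.40), Cox6a1 (-0.0167), Cox6b1 (-0.38), Ndufa5 (-0.0821), Ndufb6 (-0.15) and Uqcr10 (-0.0087) in old without minus young, Cox6b1 (-0.35) and Ndufc1 (-0.0039) in old without minus old with, and Ndufc1 in old with minus TN3 (0.0164). In old without minus young, 11 calls became 19 with array weights and 22 with only those groups fitted. In old with minus young, 0 became 1 with detection on 13 arrays or chip as fixed block and 5 with array weights. In old without minus old with, 2 became 4 without background correction, with the deposited log2 values or with array weights, and 1 with the mean over probes. Against TN3, 5 calls in old with became 8 with array weights and 0 with only those groups fitted; 2 in old without became 4 with no detection filter and 0 with the chip as fixed block or chip 5 alone; 5 in young became 2 with only those groups fitted. Leaving out 1 array at a time gave 5 to 20 calls for old without minus young, 0 to 3 for old with minus young, 0 to 2 for old without minus old with, 0 to 15, 1 to 6 and 0 to 8 for old with, old without and young minus TN3, and 0 for TN3 minus TN2. The members' median then ran from 0.09 to 0.14, -0.01 to 0.12, 0.01 to 0.14, -0.01 to 0.10, 0.10 to 0.14, -0.08 to 0.00 and -0.02 to 0.04, in that order. The causes were not tested. Chip could be no fixed block where groups share no chip. Probes of Cox4i2, Cox6a2, Cox6b2 and Uqcrq read near background, which limits what can be said of them.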
